A study of Mus musculus with 4 samples.

Results

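Hhip-high cells are here those cells of the sorted lung suspension that had abundant transcript of Hhip and none of the lineage genes Epcam, Ptprc and Pecam1. Hhip is the gene of a secreted and membrane-bound protein that binds hedgehog ligands and limits the pathway. They were chosen from 11118 barcodes by transcript counts alone. A member had at least 500 detected genes and at most 10% of its unique molecular identifiers (UMIs, counted transcript molecules) from mitochondrial genes. It had no UMI of the epithelial gene Epcam, the leukocyte gene Ptprc or the endothelial gene Pecam1, and 5 or more of Hhip. It also had under 10 UMIs summed over Clec3b, Serpinf1 and Pi16, markers of adventitial fibroblasts. The filter on genes and mitochondrial UMIs left 9391 barcodes, the 3 lineage genes 6908, the Hhip minimum 762 and the adventitial limit 412. The 412 Hhip-high cells were 3.71% of all barcodes and held 1833893 UMIs.

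The cells came from lungs of mice of about 8 weeks, sorted as negative for CD45 and CD31. All mice carried Gli1CreERT2/WT and Rosa26mTmG/WT and had been given tamoxifen, and no untreated or Cre-free group was analysed here. The 4 samples bear the same labels, and the deposited matrix pools them with no map from cells to samples, so it counted as 1 library. No test was made between cells, and every interval given is a 95% interval that covers counting error only.

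Hedgehog ligands bind the receptor PTCH1 on mesenchymal cells and release the signal transducer SMO, and the GLI factors then raise transcription of targets that include Gli1, Ptch1 and Hhip itself. Cre recombinase made from the Gli1 locus therefore acts in cells in which that locus was active while tamoxifen was present. In the mTmG reporter, a cell makes membrane tdTomato until Cre removes that sequence, after which the cell and its descendants make membrane EGFP. The Egfp transcript thus records past activity of the locus, whereas Gli1 and Ptch1 transcripts are counted at harvest. Lung mesenchyme with high Hhip includes myofibroblasts of the alveolar ducts and smooth muscle of the airways.

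Egfp chose the sets that were compared, so its levels are a description. Levels are in CPM (counts-per-million), the UMIs of a gene scaled to the total UMIs of a cell or of a set of cells. Egfp had to reach at least 1000 CPM in a reporter-high cell and to stay under 200 CPM in a reporter-low cell. This gave 159 reporter-high cells (38.6% of the 412), 181 reporter-low cells (43.9%) and 72 cells between the limits (17.5%). Egfp ran from 2 to 111 UMIs per reporter-high cell with a median of 24.0, and from 1201 to 17012 CPM with a median of 5996. Of the reporter-low cells, 170 had 0 Egfp UMIs and 11 had 1. Just inside and outside the limits, the lowest reporter-high cell stood at 1201 CPM, the cells between at 200 to 967 and the highest reporter-low cell at 195. Of the 72 cells between, 51 had exactly 1 Egfp UMI. At the other limits of the choice, 16 cells had 5 Hhip UMIs and 21 cells with 4 fell outside, while 2 cells had 9 UMIs of the adventitial genes and 5 with 10 fell outside.

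**Figure D1:**
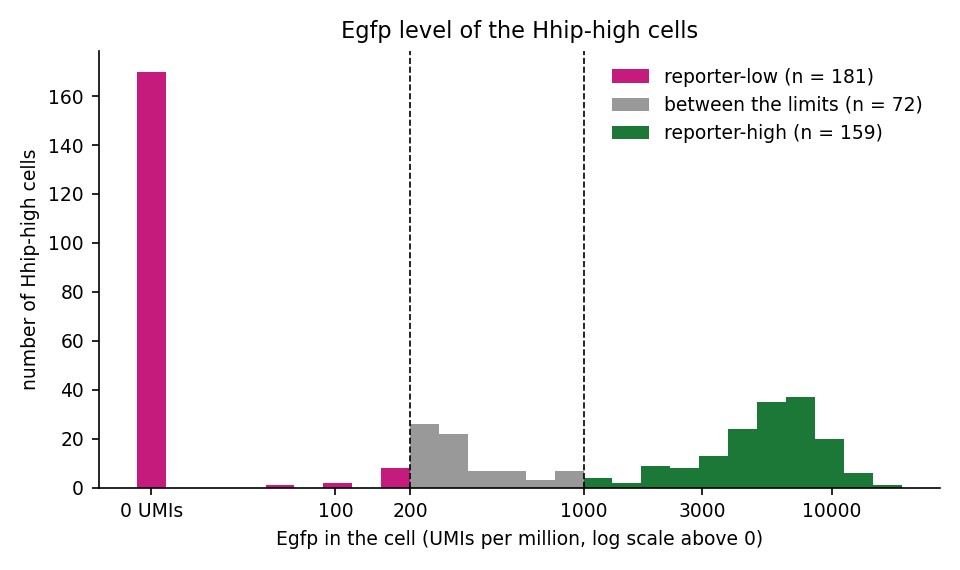
Number of Hhip-high cells (vertical axis) by Egfp level of the cell in CPM (horizontal axis, log scale, with cells at 0 UMIs in a bar of their own at the left), and dashed lines at the limits of 200 and 1000. Most reporter-low cells (170 of 181) had no Egfp UMI, and the reporter-high cells centred near 5996 CPM.

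Egfp was also counted in cells of another lineage. Among the 2177 cells that passed the gene and mitochondrial filter and had an Epcam UMI, 51.4% had an Egfp UMI at a median depth of 10541 UMIs, their summed Egfp level had an interval of 195 to 205 CPM, and 94 (4.32%) reached 1000 CPM. An Egfp UMI alone thus did not set Hhip-high cells apart from cells with an Epcam UMI. The summed level of the latter includes the 94 cells at 1000 CPM or more and need not be that of a typical cell. Whether single Egfp UMIs in Hhip-high cells were background was not tested. Depth was alike in the sets compared: reporter-high cells had a median of 4048 UMIs (1559 to 23161) and 1755 genes, and reporter-low cells 3900 UMIs (1024 to 16025) and 1687 genes. Their totals were 768020 and 775306 UMIs, and the median mitochondrial share was 3.55% and 3.22%. Scrublet, a doublet caller, marked 5 reporter-high and 4 reporter-low cells, which were kept.

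The other reporter transcript, which the choice did not use, was nearly absent from reporter-high cells. TdTomato, transcribed from the unrecombined allele, had 1 UMI in 159 reporter-high cells (1.3 CPM, 0.033 to 7.25) and 62 UMIs in 181 reporter-low cells (80.0 CPM, 61.3 to 103), a ratio of 0.0163 (0.000406 to 0.0941). It was found in 1 reporter-high and 50 reporter-low cells, which is 0.629% and 27.6%. After each cell was thinned to 3000 UMIs, which kept 132 reporter-high and 148 reporter-low cells and left out 27 and 33 shallower ones, the shares were 0.758% (0.0192 to 4.15%) and 20.3% (14.1 to 27.7%). Cells between the limits had 103 CPM of TdTomato (69.7 to 147), with both reporter transcripts in 22 of 72 cells. Both were present in 1 reporter-high and 6 reporter-low cells. TdTomato in cells with an Epcam UMI was 31.2 CPM.

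Ptch1, the hedgehog receptor gene and a target of the pathway, was the hedgehog gene that differed most among those with enough UMIs to compare. It had 194 UMIs in reporter-high and 42 in reporter-low cells, or 253 CPM (218 to 291) against 54.2 CPM (39.0 to 73.2), a ratio of 4.66 (3.33 to 6.67). Cell by cell, Ptch1 ran from 0 to 12 UMIs in reporter-high and from 0 to 8 UMIs in reporter-low cells, with a median of 0 in both. The sets overlapped, and the difference lay in how many cells had the transcript and how much of it they had. A Ptch1 UMI was found in 73 reporter-high cells (45.9%) and 31 reporter-low cells (17.1%), and in the thinned cells in 40.9% (32.4 to 49.8%) and 14.2% (9.0 to 20.9%). The 90th percentile over cells was 651 CPM in reporter-high and 253 CPM in reporter-low cells. Without the cell that had the most Ptch1 UMIs the ratio was 4.46. Over 20 other settings of the comparison, some of which cannot move a gene's ratio, it lay between 3.57 and 6.26. Cells with an Epcam UMI had 34.7 CPM of Ptch1 (32.5 to 37.0) and a Ptch1 UMI in 25.8% of cells at their greater depth, and how much of the reporter-low share is background was not tested.

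A gene counted as past the fold at a ratio of 2 or more, or of 0.5 or less, if it had at least 50 UMIs over both sets. Of 4365 such genes, outside the genes the choice used, 77 (1.76%) were at 2 or more and 22 (0.504%) at 0.5 or less, and the median ratio was 1.01. Of the 18 genes of the hedgehog list, 5 had enough UMIs. Ptch1 alone was at 2 or more, none was at 0.5 or less, and the median was 1.14.

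Among the other hedgehog genes, the ligand genes were at or near 0. Shh had 0 UMIs in reporter-high and 1 in reporter-low cells, and Ihh and Dhh had none. Of the co-receptor genes, Boc was at 79.4 against 78.7 CPM (ratio 1.01, 0.696 to 1.46) and Gas1 at 219 against 192 CPM (1.14, 0.907 to 1.43). Cdon, the remaining co-receptor gene, had 18 UMIs in reporter-high and 6 in reporter-low cells, a ratio of 3.03 (1.15 to 9.32) below the UMI minimum. Smo, the signal transducer gene, was at 58.6 and 54.2 CPM (1.08, 0.694 to 1.69). Foxf1, a lung mesenchyme transcription factor gene that responds to hedgehog, was at 227 and 144 CPM, a ratio of 1.57 (1.23 to 2.01). A Foxf1 UMI was found in 91 of 159 and 77 of 181 cells. In the thinned cells the shares were 42.4% (33.9 to 51.3%) and 37.8% (30.0 to 46.2%), with overlapping intervals. Hhip, which served to choose the cells, was 3822 CPM in reporter-high and 4930 CPM in reporter-low cells.

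The GLI transcription factor genes themselves were too sparse to compare. Gli1 had 9 UMIs in reporter-high cells (11.7 CPM, 5.36 to 22.2) and 7 in reporter-low cells (9.03 CPM, 3.63 to 18.6), a ratio of 1.3 (0.43 to 4.1). Of the 9 UMIs, 6 lay in the 23 cells at 1000 to 3000 CPM of Egfp (37.4 CPM, 13.7 to 81.4). The other 3 lay in the 136 cells at 3000 or more (4.94 CPM, 1.02 to 14.4). Gli1 was detected in 8 of 159 and 6 of 181 cells, against 2.09 CPM in cells with an Epcam UMI. A difference in Gli1 between the sets was not detectable at this depth. Gli2 had 6 and 13 UMIs, and Gli3 had 17 and 12. Sufu, a negative regulator gene of the pathway, had 13 and 10 UMIs, and Kif7 and Gpr161, which act at the primary cilium, had at most 5 in either set. Foxl1, another forkhead gene that responds to hedgehog, had 8 UMIs in reporter-high cells and 1 in reporter-low cells.

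Of the 14 gene lists, the contractile one had the most genes past the fold. Of its 20 genes, 17 had enough UMIs, 8 were at 2 or more against a background of 1.76%, none was at 0.5 or less against 0.504%, and the median was 1.9 against 1.01 over all genes tested. Cnn1, which encodes the actin-binding protein calponin, was highest, with 227 UMIs in reporter-high and 25 in reporter-low cells, or 296 against 32.2 CPM (ratio 9.17, 6.05 to 14.5). Cnn1 was found in 35 and 10 cells, and 93 of its UMIs came from 1 reporter-high cell, without which the ratio was 5.54. Myh11, the smooth muscle myosin heavy chain gene, was at 556 against 193 CPM (2.87, 2.38 to 3.48), but at 1.89 without the reporter-high cell that gave 153 of its 427 UMIs. Actg2, the gamma actin of smooth muscle, was at 422 against 152 CPM (2.77, 2.24 to 3.45) and stayed at 2.47 without its top cell.

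The muscle genes Acta2, Tagln, Tpm2 and Des had ratios from 1.76 to 2.33. Acta2, smooth muscle alpha actin, was at 3620 CPM in reporter-high and 1922 CPM in reporter-low cells (1.88, 1.77 to 2.01), and its median over cells was 7 UMIs against 3. Nearly the same share of cells had an Acta2 UMI, 81.8% and 83.8% after thinning, so the levels differed more than the shares. Tagln, which encodes the actin-binding protein transgelin, was at 5056 and 2876 CPM (1.76, 1.67 to 1.85). Tpm2, a tropomyosin gene, was at 1464 and 627 CPM (2.33) and at 1.92 without its top cell. Des, the intermediate filament gene desmin, was at 457 and 239.9 CPM (1.9).

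Actc1, cardiac alpha actin, was confined to few cells: 17 reporter-high and 3 reporter-low cells held its 139 and 53 UMIs (2.65, and 1.97 without its top cell). The other genes at 2 or more were Synpo2 (2.31), which encodes an actin-bundling protein, the myosin light chain kinase gene Mylk (2.11) and Lmod1 (2.04), a gene of actin filament nucleation. Without their top cells Synpo2 was at 2.01, Mylk at 1.9 and Lmod1 at 1.88. Of the 8 genes, Cnn1, Actg2 and Synpo2 thus stayed at 2 or more when each lost its own top cell. The highest reporter-high values of Cnn1 (93 UMIs, 5051 CPM), Myh11 (153, 8309) and Tpm2 (223, 12111) give about the same cell depth. The same cell may thus be the top cell of each, and the list median without it was not computed. Between 1 and 2 lay Tpm1 (1.9), Cald1 (1.55), Myl9 (1.43), Itga8 (1.07) and Ppp1r14a (1.02), and Pdlim3 was at 0.915. Smtn, Hspb6 and Synm had under 50 UMIs, with 34 and 15, 31 and 14, and 23 and 17.

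**Figure D2:**
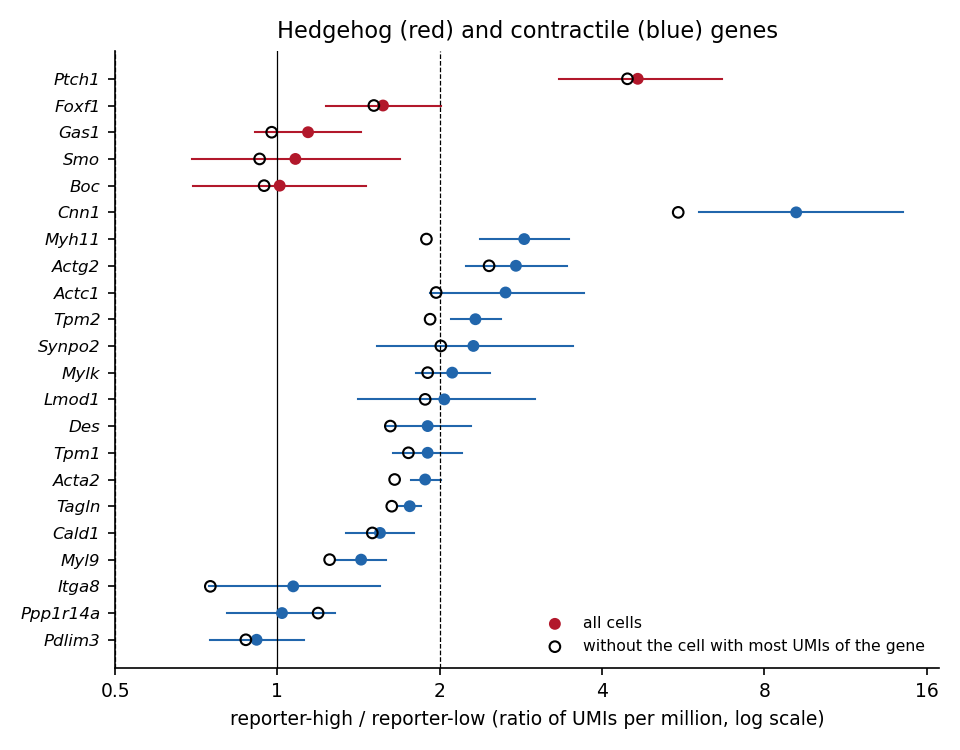
Ratio of the summed level in 159 reporter-high cells to that in 181 reporter-low cells (horizontal axis, log scale) for each hedgehog (red) and contractile (blue) gene with at least 50 UMIs; filled points are all cells, lines are 95% counting intervals, and open points leave out the cell with the most UMIs of that gene. Ptch1 (4.66) and Cnn1 (9.17) lie farthest right, and the open point of Myh11 falls to 1.89.

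Promoters are shown for Ptch1, the hedgehog target with the difference above, and for the contractile genes whose promoter held a CArG box, the binding site of serum response factor at muscle genes. RefSeq promoters (GRCm38.p6, 250 bases before to 50 after a gene's start) were found for 17 of 20 contractile genes (19 promoters) and 12 of 18 hedgehog genes (13 promoters). A CArG box was in 2 of the 19 contractile promoters and 535 of 32851 promoters overall (1.63%), and the GLI consensus GACCACCCA, searched on both strands as the CArG box was, in none of either list and in 83 overall (0.253%). No promoter held both. Actc1 (ratio 2.65) and Myl9 (1.43) had the box 47 and 161 bases before the RefSeq start. Such a match is a description of letters and not a measured binding site. The sequences run 5′ to 3′ on the strand of the gene, chr13:63565686-63565985 (minus) for Ptch1, chr2:114052826-114053125 (minus) for Actc1 and chr2:156775214-156775513 (plus) for Myl9, with the CArG box in capitals. The Ptch1 and Actc1 stretches lie within the spans that GENCODE gives the genes and not at their 5′ ends, so they belong to internal starts. The GENCODE span of Actc1 is chromosome 2, 114047282 to 114053548.
Ptch1: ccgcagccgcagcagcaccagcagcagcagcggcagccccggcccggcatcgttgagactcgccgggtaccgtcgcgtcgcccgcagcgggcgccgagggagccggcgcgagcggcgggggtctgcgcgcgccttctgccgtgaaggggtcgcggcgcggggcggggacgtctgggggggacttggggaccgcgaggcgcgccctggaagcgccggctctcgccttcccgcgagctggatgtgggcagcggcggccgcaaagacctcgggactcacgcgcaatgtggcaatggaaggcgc
Actc1: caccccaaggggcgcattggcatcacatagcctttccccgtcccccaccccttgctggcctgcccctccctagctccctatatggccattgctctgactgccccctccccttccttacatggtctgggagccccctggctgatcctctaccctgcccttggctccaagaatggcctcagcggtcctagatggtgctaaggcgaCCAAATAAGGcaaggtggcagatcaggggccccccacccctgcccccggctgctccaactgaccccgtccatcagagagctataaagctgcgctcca
Myl9: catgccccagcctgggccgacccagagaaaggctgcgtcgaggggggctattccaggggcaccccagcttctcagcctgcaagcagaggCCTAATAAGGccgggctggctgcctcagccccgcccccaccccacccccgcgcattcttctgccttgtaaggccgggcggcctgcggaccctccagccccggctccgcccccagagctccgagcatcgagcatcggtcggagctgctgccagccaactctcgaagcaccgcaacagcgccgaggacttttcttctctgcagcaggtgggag
In GENCODE M21 on mm10, Ptch1 spans chromosome 13, 63508328 to 63573598 (minus strand), Cnn1 chromosome 9, 22099216 to 22109630 (plus), and Sncg chromosome 14, 34370274 to 34374789 (minus). Lum spans chromosome 10, 97565128 to 97572703 (plus), and Fgf18 chromosome 11, 33117430 to 33147400 (minus).

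Muscle transcript was higher in reporter-high cells in the middle and at the top of its range over cells. The sum of Acta2, Tagln and Myh11 in a cell had a median of 4887 CPM in reporter-high and 2559 CPM in reporter-low cells, 90th percentiles of 23166 and 11130, and highest values of 59329 and 33980. Both sets began at 0 and overlapped over most of their range, with 61.6% of reporter-high and 45.3% of reporter-low cells at 3000 CPM or more. Of the 29 Hhip-high cells at 20000 CPM or more, 26 were reporter-high and 3 reporter-low, which put 16.4% of reporter-high and 1.66% of reporter-low cells there. Within ranges of this sum the contractile ratios depended on the range. At 3000 or more 10 of 17 contractile genes were at 2 or more, against 57 of 2511 of all genes tested there. The contractile median was 2.17. At 10000 or more 8 of 17 were at 2 or more, against 39 of 1034 of all genes, with a contractile median of 1.84. In that range 1 of 17 was at 0.5 or less, against 15 of 1034. Under 10000, a setting added after the data were seen, 0 of 15 were at 2 or more, with a median of 0.998. Over all 3565 genes with enough UMIs in these cells, 1.6% were at 2 or more. The ranges are set by 3 of the contractile genes themselves, which limits how far such genes can differ within a range, so these values do not show in which cells the difference arose. The ranges are of a score and not cell types, and 80 of the 412 cells lay within 2000 to 4000, near the boundary of 3000 used next.

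Ptch1, which is not part of the muscle sum, was higher in reporter-high cells in each of 5 ranges of it. Under 1000 CPM of the muscle sum it was 294 CPM in 36 reporter-high and 95.1 CPM in 40 reporter-low cells. From 1000 to 3000 it was 103 CPM in 25 cells against 45.0 CPM in 59, with overlapping intervals, and from 3000 to 10000 it was 147 CPM in 48 against 36.9 CPM in 62. From 10000 to 20000 it was 277 CPM in 24 cells against 65.8 CPM in 17, and at 20000 or more 435 CPM in 26 cells against 38.2 CPM, a value of 1 UMI, in 3. Below 3000 the ratio was 3.57 (2.25 to 5.81) and at or above 3000 it was 6.26 (3.7 to 11.3), a difference that was not tested. Under 1000, alveolar fibroblast genes summed to 5615 and 3843 CPM and mesothelial genes to 1202 and 6.34 CPM in reporter-high and reporter-low cells, and their part in the Ptch1 level there was not tested. The share of Hhip-high cells that were reporter-high was 38.7%, 24.8%, 34.0%, 50% and 89.7% (72.6 to 97.8%) from the lowest muscle range to the highest.

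**Figure D3:**
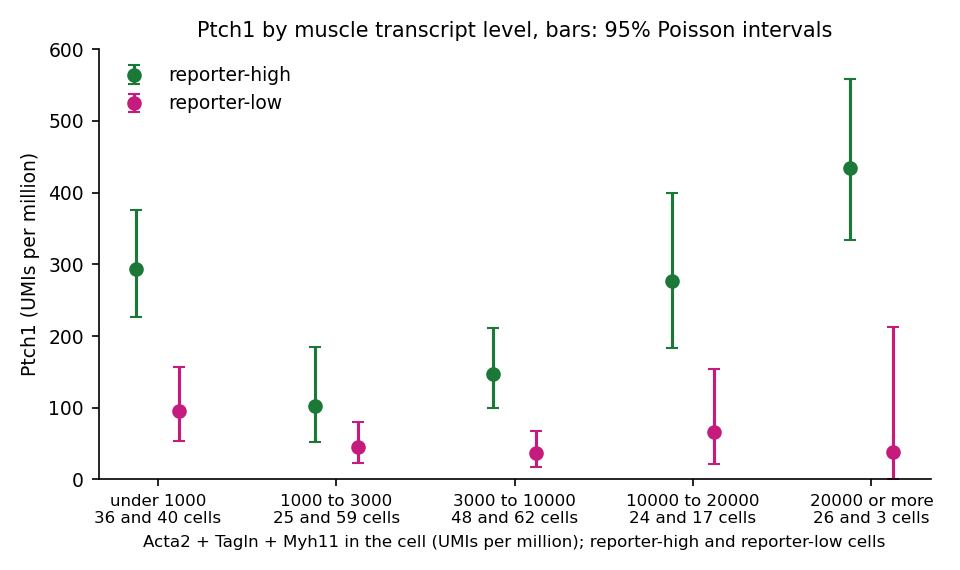
Ptch1 level in CPM (vertical axis) in reporter-high (green) and reporter-low (magenta) cells, by the cell's summed Acta2, Tagln and Myh11 (horizontal axis, 5 ranges with the number of cells of each set); bars are 95% Poisson intervals of the counts. The green point lies above the magenta one in each range, from 103 against 45.0 to 435 against 38.2.

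Other cell types' transcripts were compared for the whole lists. The vascular smooth muscle list, 11 genes, summed to 159 CPM in reporter-high and 149.6 CPM in reporter-low cells, with Gja4 at 0 in both sets and Notch3 at 0 in reporter-high cells. The pericyte list was at 573 and 613 CPM, with Higd1b and Trpc6 at 0 in both. Alveolar fibroblast genes summed to 2368 and 1951 CPM with cell medians of 681 and 510.5 CPM. Mesothelial genes summed to 451 and 189.6 CPM, with a UMI in 6.92% and 3.31% of cells and a highest cell of 17185 and 8861 CPM. Alveolar type 2 genes summed to 5443 and 3858 CPM, but 1 cell at 209056 CPM and 1 at 204010 stood far above the cell medians of 843 and 1008. A UMI of Sftpc, the surfactant protein C gene, was found in 93.7% and 93.9% of cells. Endothelial genes were at 65.1 and 58.0 CPM, leukocyte genes at 837 and 717 CPM, and erythroid genes at 0 in both. Under 5 UMIs of Inmt, Npnt, Upk3b and Msln together, markers of alveolar fibroblasts and mesothelium, the Ptch1 ratio was 5.37, and without the called doublets it was 4.64. The part of these transcripts in the other ratios was not tested.

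Along the Egfp level, Ptch1 was high and TdTomato low only in the bands above the upper limit. Ptch1 was 57.8 CPM in the 170 cells with 0 Egfp UMIs, 24.0 CPM (2.91 to 86.7) in the 11 with 1, and 48.2 CPM (26.3 to 80.8) in the 72 cells between the limits. It was 368 CPM in the 23 cells at 1000 to 3000 CPM of Egfp and 222 CPM in the 136 at 3000 or more. TdTomato over the same bands was 78.0, 96.1, 103, 6.23 and 0 CPM. The 72 cells between the limits, which no comparison used, thus had Ptch1 and TdTomato levels whose intervals overlapped those of the reporter-low cells.

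Contractile genes took another course along the bands. Their summed level was 8693, 8165 and 7902 CPM in the bands below 1000 CPM of Egfp, 4936 CPM at 1000 to 3000, and 18847 CPM at 3000 or more. Cnn1 was 34.7, 12, 20.6, 6.23 and 372 CPM in that order. The 23 cells at 1000 to 3000, a band set after earlier results were known, had the highest Ptch1 level and the lowest contractile sum. They also had 7404 CPM of alveolar fibroblast genes against 1039 to 1988 in the other bands, 1253 CPM of mesothelial genes, against 1717 CPM in the 11 cells with 1 Egfp UMI and 5.78 to 239 in the other 3 bands, and a median of 6667 UMIs per cell against 3956 at 3000 or more. The part of those transcripts in the band's values was not tested. With reporter-high set at 3000 CPM or more, the Ptch1 ratio was 4.10.

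**Figure D4:**
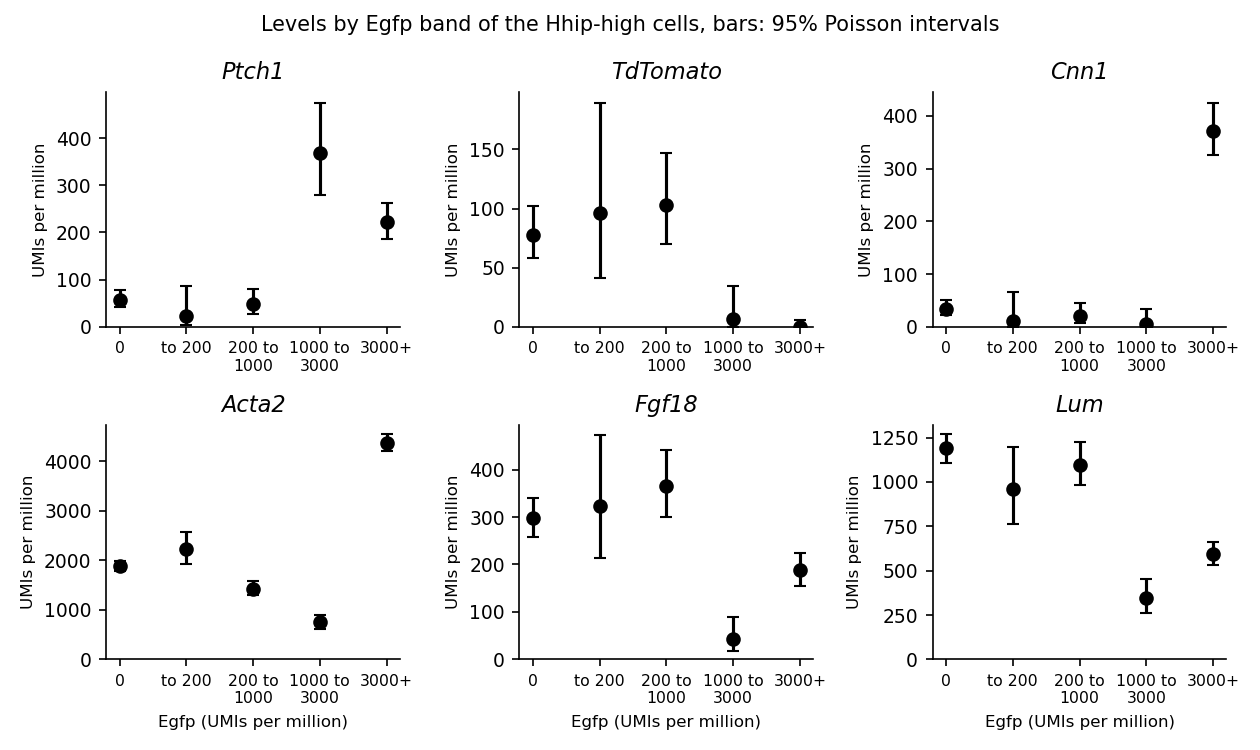
Summed level in CPM (vertical axes) of 6 genes in Hhip-high cells grouped by CPM of Egfp (horizontal axes, 5 bands of 170, 11, 72, 23 and 136 cells); bars are 95% Poisson intervals. Ptch1 is higher and TdTomato lower in the bands from 1000 up than in those below, whereas Cnn1 and Acta2 are high in the top band only.

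Among the 2301 genes with at least 100 UMIs, 50 CPM in the higher set and a UMI in 10% of its cells, the highest ratios beyond Ptch1 and muscle genes belonged to a mixed set. Sncg, which encodes gamma-synuclein, was at 181 CPM in reporter-high and 33.5 CPM in reporter-low cells (5.4, 3.53 to 8.55), with a UMI in 43 and 14 cells and at most 10 UMIs in a cell. It was at 6.47 in cells with 3000 or more of the muscle sum and at 1.88 (0.79 to 4.68, 15 against 10 UMIs) below. Rbp4, the retinol-binding protein gene, was at 221 and 77.4 CPM (2.86, 2.12 to 3.91). Rbp4 stood at 704 CPM in the 23 cells at 1000 to 3000 CPM of Egfp and at 93.8 CPM in the 136 cells above, and with reporter-high set at 3000 CPM its ratio was 1.21. Ehd4, of an endocytic recycling protein, was at 156 and 55.5 CPM (2.82), but at 0.396 in cells under 3000 of the muscle sum. Fam129a was at 165 and 67.1 CPM (2.47, and 1.99 without its top cell). Bmp3, of the BMP ligand family, was at 107 and 46.4 CPM (2.3, 1.54 to 3.5), at 1.96 without its top cell and at 1.81 with reporter-high set at 3000 CPM. The remaining genes of the 12 highest were Ptch1, Cnn1, Myh11, Actg2, Actc1, Tpm2 and Synpo2.

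Many of the 77 genes rested on few cells. Without the cell that gave each gene most of its UMIs, 31 of the 77 genes at 2 or more and 17 of the 22 at 0.5 or less stayed past the fold. For 7 of the 77, 1 cell gave at least 50% of the UMIs. The cell cycle gene Ube2c had 148 UMIs, all in 1 reporter-high cell, and Slpi, a secreted protease inhibitor gene, had 153 UMIs in 3 reporter-high cells. Both were named after their values were seen.

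**Figure D5:**
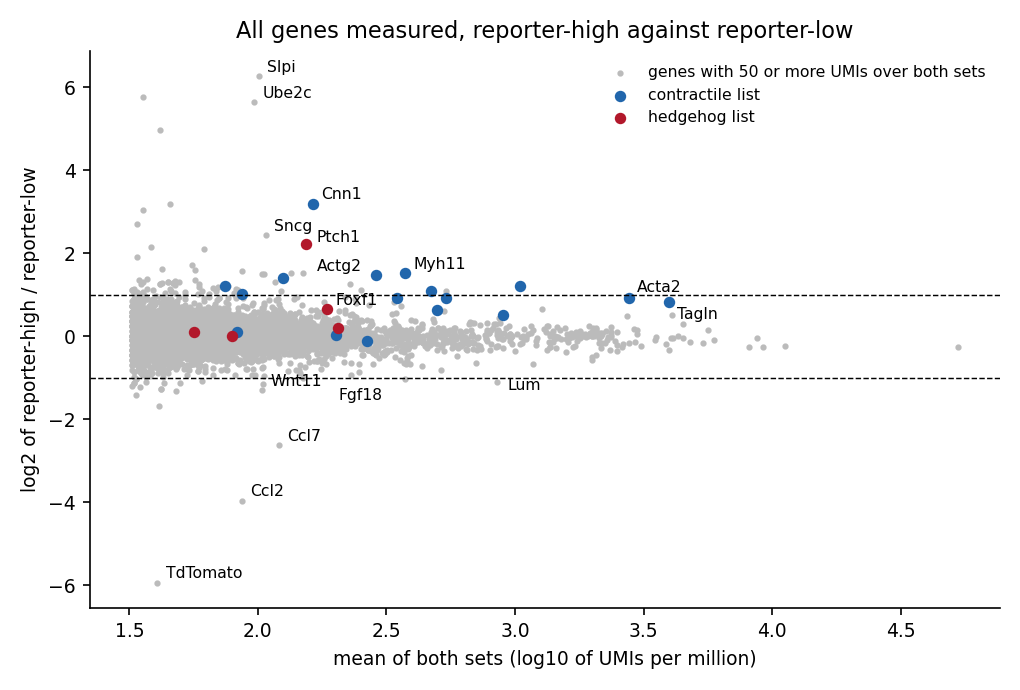
Each of the 4365 genes with at least 50 UMIs over both sets, by its mean level (horizontal axis, log10 of CPM) and the log2 ratio of reporter-high to reporter-low cells (vertical axis), with dashed lines at ratios of 2 and 0.5. Most contractile genes (blue) and Ptch1 (red) lie above 0, TdTomato, Ccl2 and Ccl7 lie lowest, and the UMIs of Slpi and Ube2c, near the top, come from 3 and 1 reporter-high cells.

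The lowest ratios among the 2301 genes also belonged to genes of mixed function. Wnt11, a Wnt ligand gene, was at 59.9 CPM in reporter-high and 147 CPM in reporter-low cells (0.407, 0.283 to 0.578), with a UMI in 37 and 69 cells. Efnb2, of the ligand ephrin-B2, was at 65.1 and 144 CPM (0.451, 0.316 to 0.634). Lum, which encodes the matrix proteoglycan lumican and is also on the adventitial fibroblast list, was at 543 and 1165 CPM (0.466, 0.414 to 0.524). Its median was 1 UMI in reporter-high and 4 UMIs in reporter-low cells, and 87 of 159 and 155 of 181 cells had it. The whole adventitial list, which holds genes the choice used, summed to 2807 and 3944 CPM. Lum was at 0.657 under and 0.323 at or above 3000 of the muscle sum.

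Icam1, a cell adhesion gene, was at 243 and 502 CPM (0.485, 0.405 to 0.579, and 0.504 without its top cell). Fgf18, a growth factor gene, was at 158 and 301 CPM (0.524, 0.417 to 0.656), and at 0.475 under and 0.567 at or above 3000 of the muscle sum. The others of the 12 lowest were Lpl (0.501), of lipoprotein lipase, Gucy1a1 (0.514), of the nitric oxide receptor, Enpp1, Adamtsl2 and Car2 (each 0.52), Thbs2 (0.523), of thrombospondin-2, and Tnxb (0.543), of tenascin-X. Over 20 other settings Wnt11 lay between 0.323 and 0.504, Efnb2 between 0.429 and 0.558 and Fgf18 between 0.475 and 0.626.

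Genes known from Hhip-high myofibroblasts had ratios mostly below 1. Of that list, 13 of 15 had enough UMIs, none was past the fold in either direction against 1.76% and 0.504% of all genes, 11 were below 1 and the median was 0.876. Enpp2, of the lysophospholipase autotaxin, was at 909 CPM in reporter-high and 1451 CPM in reporter-low cells (0.626, 0.569 to 0.689). Wnt5a, a Wnt ligand gene, was at 311 and 449 CPM (0.693), Aspn, of the proteoglycan asporin, at 1751 and 2380 CPM, and Mustn1 at 2469 and 2817 CPM. The list median depended on where the muscle sum was cut. Under 1000 CPM of the muscle sum, 4 of 9 genes with enough UMIs were at 0.5 or less, against 26 of 1184 of all genes there. The list median was 0.51 there and 0.883 at 1000 or more, and 0.612 under 3000 and 0.802 at 3000 or more. With the limit at 10000 it was alike on both sides, at 0.727 under and 0.734 at or above. At 10000 or more 1 of 9 genes was at 0.5 or less, against 15 of 1034 of all genes there. The genes with enough UMIs differed between the ranges. Under 1000, the median depth was 4656 UMIs in reporter-high and 3210 UMIs in reporter-low cells. Alveolar fibroblast and mesothelial genes also differed there, as given above, and the part of either in these ratios was not tested. In the 23 cells at 1000 to 3000 CPM of Egfp, Aspn was at 754 CPM and Enpp2 at 349 CPM, against 2015 and 1057 CPM in the cells above. The list was chosen with earlier results of these cells known and is no independent measure of them.

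The chemokine genes Ccl2 and Ccl7, which attract monocytes, were low in reporter-high cells but sat in few cells. Ccl2 had 8 UMIs in 7 reporter-high and 126 UMIs in 14 reporter-low cells (0.0641, 0.0271 to 0.13), and 40 of them came from 1 cell. Ccl7 had 26 UMIs in 3 and 161 in 11 cells (0.163, 0.103 to 0.248). They were the 2 of 11 genes of their list at 0.5 or less, against 0.504% of all genes, and the list median was 0.996. In the same list 1 gene was at 2 or more, against 1.76%: the complement gene C3, at 2.41, or 1.39 without its top cell. Along the Egfp bands Ccl2 was 107, 624, 465, 12.5 and 9.88 CPM. Ccl7 took another course, at 218, 120.1, 3.44, 0 and 42.8 CPM, so it was lower in the cells between the limits than at 3000 or more.

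The other lists had at most 1 gene past the fold, where 1.76% of all genes were at 2 or more and 0.504% at 0.5 or less. No gene was past the fold among 13 collagens (median 0.971), 19 genes of elastic fibres and adhesive matrix (1.08) and 22 immediate early and heat shock genes (0.87). Within these, Sparcl1 was at 1557 and 983 CPM (1.58), Ltbp1 at 1.61, Col3a1 at 0.793 and Hspa1b, a heat shock gene that marks stress, at 1.78, while Fosb was at 0.768. Of 8 proteoglycans 1 was at 0.5 or less (Lum), and of 10 Wnt genes 1 (Wnt11). Of 15 BMP and TGF-beta genes 1 was at 2 or more (Bmp3, which fell below 2 as given above, median 0.865), of 16 FGF, HGF, IGF, PDGF and KIT genes 1 (Igfbp6 at 2.13, or 1.65 without its top cell), and of 16 lung mesenchyme transcription factors 1 (Tcf21 at 2.09). Of 8 muscle regulators and receptors, the muscarinic receptor gene Chrm2 was at 2 or more (2.54, 63 against 25 UMIs), the endothelin receptor gene Ednrb was at 311 and 166 CPM (1.87) and the median was 1.0. Tcf21 is on the alveolar fibroblast list, and without the 23 cells at 1000 to 3000 CPM of Egfp its ratio was 0.747.

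The same Egfp limits were applied to cells outside the choice, and the values are set side by side with no test of the differences. Among cells with 10 or more UMIs of the adventitial genes, 1644 were reporter-high and 1407 reporter-low, at median depths of 9240 and 8995 UMIs. Ptch1 was 223 against 147 CPM there (1.52, 1.44 to 1.61), and of 11585 genes 93 (0.803%) were at 2 or more and 51 (0.44%) at 0.5 or less. TdTomato was at 0.145, Lum at 0.979 and Ccl2 at 1.03. Of the 20 contractile genes 6 were at 2 or more and the median was 1.56. Cnn1 was at 7.98 against 2.12 CPM there (3.77, 2.49 to 5.89). Acta2 was at 169.9 against 93.6 CPM (1.82, 1.7 to 1.94), a ratio near the 1.88 of Hhip-high cells. Both genes had lower levels in these cells than in Hhip-high cells.

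In the remaining mesenchymal and other cells, with fewer UMIs of both Hhip and the adventitial genes, 828 were reporter-high and 1725 reporter-low. Ptch1 was 149 against 71.4 CPM (2.09, 1.88 to 2.32), and of 11150 genes 124 (1.11%) were at 2 or more and 617 (5.53%) at 0.5 or less. There 6 of 20 contractile genes were at 0.5 or less and none at 2 or more (median 0.598), with Cnn1 at 29.9 against 119 CPM and Acta2 at 854 against 1491 CPM. These cells mix several types, whose shares in each set were not compared. Gli1 was at 27.2 and 24.8 CPM in the adventitial cells and at 9.09 and 4.36 CPM in the remaining cells.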

How the data were processed

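Single cells were profiled by droplet 3′ sequencing. The table deposited by the authors gives unnormalized UMI counts for 31055 features, Egfp and TdTomato included, in each barcode. It was made with Cell Ranger 3.0.0 on build mm10, per the submitters' processing notes. Which annotation release was used is not stated in the sources at hand. Free transcript and droplets with several cells remain in such counts. The labels disagree on the strain and the kit version, so neither is stated.

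UMIs were summed over each set of cells and scaled to CPM. Exact 95% intervals are Poisson for levels, conditional binomial for ratios and Clopper-Pearson for shares. A gene with 0 UMIs in a set was set against a floor of 3 UMIs over the set. Shares were also taken after thinning cells to 3000 UMIs. The genes left out of the counts past the fold were the 21 that chose the cells, mitochondrial genes included. The 4 samples form 1 group in 1 pooled library, so there was no test.

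The members and gene lists were chosen with earlier results of these data known. Named genes were the hedgehog and contractile lists, the 12 highest and 12 lowest ratios among 2301 genes with at least 100 UMIs, 50 CPM in the higher set and a UMI in 10% of its cells, and up to 3 genes of each other list. Mrtfa and Ccl19 were under no such name in the matrix. The values of 1 gene of these lists are not reported here. Scrublet (expected rate 0.08) called 458 of 9391 cells (4.88%) doublets, 10 of them Hhip-high, and they were kept. The ratio code was tested on simulated data. Coordinates are from GENCODE M21, where 87 of 87 genes matched by identifier. Scrublet ran in scanpy 1.11.5, the intervals in scipy 1.17.1 and the tables in pandas 2.3.3 and numpy 2.4.6, with Python 3.11.15 and matplotlib 3.10.9.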

Additional observations from a re-analysis of the deposited data

How the results depend on the processing

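No paired analysis was possible because the matrix holds no map from cells to samples and all samples form 1 group, and for the same reason no sample could be left out. Over 20 alternatives, 1414 of 1548 values of 78 named genes moved by less than their counting interval, 114 moved by more, and 20, of genes with a ratio of 2 or more or 0.5 or less at any UMI count, turned to the other side of 1; the cause was not tested. The minima of 10 and 200 UMIs change which genes are counted and cannot move a gene's ratio, so their values are the same by construction. Division by the median ratio, and leaving mitochondrial and contractile UMIs out of the total, scale every ratio alike, with Ptch1 at 4.62 and 4.71. Ptch1 lay between 3.57 and 6.26. The 77 genes at 2 or more became 672 with a minimum of 10 UMIs, 11 with a minimum of 200, and 43 with Hhip also at 1000 CPM or more. The 22 genes at 0.5 or less became 339, 2 and, with reporter-high at 3000 CPM, 43. The UMI minimum also sets how many genes are counted at all. The contractile median of 1.9 became 0.803 in cells under 3000 CPM of Acta2, Tagln and Myh11 and 0.998 under 10000. Under 3000 these genes reversed: Actg2 0.776, Ccl7 2.82, Chrm2 0.537, Ehd4 0.396, Gli2 1.25, Lmod1 0.985, Myh11 0.585, Mylk 0.839 and Tpm2 0.803. Under 10000 these did: Chrm2 0.817, Cnn1 0.642, Ehd4 0.833, Myh11 0.845 and Tpm2 0.959. Some of these rest on few UMIs and wide intervals. Ccl7 under 3000 had 9 against 4 UMIs (0.787 to 12.5) and Cnn1 under 10000 had 3 against 6 (0.104 to 3.01). Gli2 had only 6 and 13 UMIs over all cells of the sets. Myh11 is one of the genes that set the ranges. C3 was at 0.896 with at least 10 Hhip UMIs, 0.379 at or above 3000 of the muscle sum, 0.9 with Hhip also at 1000 CPM and 0.417 with Inmt, Npnt, Upk3b and Msln under 5 UMIs. With reporter-high at 3000 CPM, Igfbp6 was at 0.937 and Tcf21 at 0.747. The settings on Hhip CPM, on Inmt, Npnt, Upk3b and Msln, on 3000 CPM of Egfp and under 10000 of the muscle sum were chosen after seeing the data. Acta2, not past the fold at 1.88, was at 0.667 under 3000 and 0.92 under 10000. Depth limits the GLI genes, whose intervals span several-fold.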

Other observations

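Outside the rule for named genes, 3 genes were singled out after their values were seen. Ccnd2, a cyclin gene of early cell cycle entry, had 77 UMIs in 35 reporter-high cells and 18 UMIs in 8 reporter-low cells (100.3 against 23.2 CPM, ratio 4.32, 2.56 to 7.67), and was at 3.96 without its top cell. Nnat, which encodes neuronatin, had 49 UMIs in 24 and 6 UMIs in 6 cells (8.24, 3.53 to 23.6). Pde5a, of the phosphodiesterase that degrades cyclic GMP, was at 345 against 159 CPM (2.17, 1.75 to 2.72) with a UMI in 94 and 74 cells. Gucy1a1, of the enzyme that makes cyclic GMP, was among the 12 lowest at 71.6 against 139 CPM (0.514, 0.365 to 0.718). Pcna, a DNA replication gene and the one cell cycle list member with enough UMIs, was at 50.8 and 46.4 CPM (1.09).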
